A study of Cucumis sativus with 33 samples.

Results

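The genes described here stood higher in the open corolla of super ovaries than in the open corolla of normal ovaries, where they were low. They are the 61 of 23248 cucumber genes in the deposited table that met a rule on mean RPM, the reads of a gene scaled to a fixed library total. Members were chosen by group means as follows. The mean at super flowering (S9) had to be at least 5 RPM and at least 2.5 times the mean at normal flowering (N5). It also had to be at least 2 times the mean in the super green bud (S1) and not below either super yellow bud (S7 and S8). N5 and the normal green yellow bud (N3) had to be under 5 RPM. The members were thus selected on S9, S8, S7, S1, N5 and N3, and the values of these groups are given as a description with no test.

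RNA-seq was run on corollas from bagged female flowers of Cucumis sativus inbred line 6457, which sets fruit without pollination. Ample fertilizer and water with a single fruit left on the plant gave super ovaries, and fertilizer and water in short supply with fruit set at other positions gave normal ovaries, so that feeding and fruit load were varied together. Groups carry the letter of the ovary type and the day after the ovary was labeled. Green buds were N1 and S1, and green yellow buds were N3 in the normal course and S3, S4 and S5 in the super one. Yellow buds were N4, S7 and S8, and open flowers N5 and S9. There were 3 libraries in all 11 groups, each from 5 corollas ground together. The labels do not say whether pools came from separate plants, so p-values measure the spread between pools. Treatment cannot be told apart from the later calendar day at which super flowers opened.

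The corolla is the whorl of petals. Its opening, anthesis, is known in many plants to depend on expansion of petal cells, with loosening of the cell wall and uptake of water and sugar, and is timed by hormones and the light cycle. Petals colour as plastids lose chlorophyll and gain carotenoids, and an open, unpollinated corolla later wilts. In whole corollas, fewer cells of a type and less RNA per cell cannot be told apart. The identifiers are not paired with gene names in the file, and 0 of them matched a RefSeq gene table, so no role can be given to any member, the tissue label could not be checked against marker genes, and 4 identifiers are printed.

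Library totals recovered from the steps of the values ran from 16858682 to 24643185 steps, so that 5 RPM stood for about 84 to 123 reads. The highest total was that of N5 replicate 2, a library not used for reads. Replicates correlated across genes at 0.989 or above (Pearson, log2 scale), except within S7, where the lowest value was 0.965. S7 replicate 3 stood apart there. S7 entered the rule only as a level that S9 had to reach, and leaving out S7 replicate 3 left the same 61 members.

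Summed over the 61 members, the level was low in the normal course and highest in the super open flower. In N1 the 3 libraries summed to 80, 87.4 and 74.3 RPM, in N3 to 56.3, 59.8 and 57, in N4 to 110, 99.9 and 103, and in N5 to 130, 126 and 144. In S1 the sums were 70.5, 66.8 and 73.6 RPM, a little under those of the normal green bud. The rule limits S1 and not N1, and 1 member, Csa6G507370, stood at 15.7 RPM in N1 and 6.42 in S1. The members' median was 0.587 RPM in N1 and 0.727 in S1. They were 87.8, 127 and 96.4 RPM in S3, 142, 166 and 212 in S4, and 138, 147 and 142 in S5. The yellow buds gave 126, 207 and 178 RPM in S7 and 210, 290 and 291 in S8, and the open super flower 518, 784 and 788. The mean went from 264 ± 46.6 RPM (SD, n = 3) in S8 to 697 ± 154 in S9. No S9 library overlapped a library of another group.

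**Figure D1:**
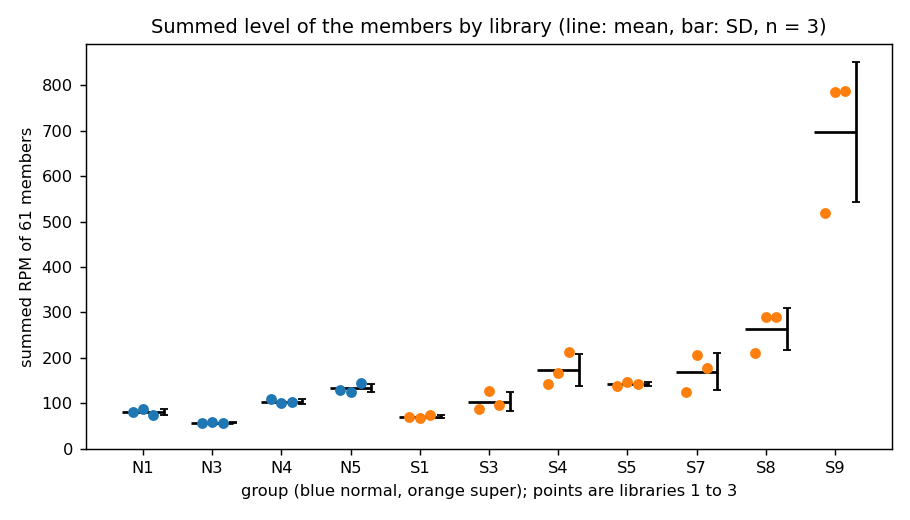
Summed RPM of the 61 members in each of the 33 libraries, by group on the x axis, with the mean as a line and the SD as a bar. The S9 libraries stand at 518, 784 and 788 RPM and those of N5 at 130, 126 and 144; the groups S9, S8, S7, S1, N5 and N3 chose the genes.

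The members were of modest abundance even at their highest. Their S9 means ran from 5.22 to 35.5 RPM with a median of 8.82, under the median of 16.6 RPM over the 18905 genes tested. Of the 61, 29 reached 10 RPM in S9 and 6 reached 20. In N5 their means ran from 0.297 to 4.96 RPM with a median of 2.13, and 48 of them reached 1 RPM, so that most were detected in the open normal flower. S9 exceeded N5 by 2.58 to 65.8 times, with a median of 4.41, and 26 members differed by at least 5 times and 14 by at least 10 times. In 60 of the 61 all S9 libraries lay above all N5 libraries, as in 19.7% of all genes tested; the rule used this contrast and nothing is read from the count.

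Genes meeting the super ovary conditions of the rule numbered 2055, of which 1941 had at least 5 RPM in N5 and 114 did not. The 61 thus form a small part of the genes that met those conditions on the super groups. At the thresholds, the lowest S9 mean among the members was 5.22 RPM and the highest among genes failing that condition alone was 4.97. The members' N5 means went up to 4.96 RPM, and the nearest gene outside stood at 5.55. The ratio of S9 to N5 was 2.58 for the nearest member and 2.46 for the nearest gene outside. S9 was 1.01 times S8 in the member nearest that limit and 0.997 times in the nearest gene outside. Genes failing a single condition were most often those under 5 RPM in S9 (137) or with S8 above S9 (58).

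S9 replicate 1 was the lowest S9 library for 44 of the 61 members (72.1%). Over the 13605 genes with an S9 mean of at least 5 RPM the share was 28.8%. Of the members, 50 reached 5 RPM in S9 replicate 1, 58 in replicate 2 and 61 in replicate 3. Without S9 replicate 1 the rule gave 105 genes, 59 of the 61 members among them; without replicate 2 it gave 48, and without replicate 3 it gave 69. The part of this library in the other results was not tested beyond the values given beside them.

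The contrast between the open flowers was also read in libraries that the choice had not used. The rule was applied with 1 replicate number left out of every group, and S9 and N5 were then compared in the libraries left out; replicate numbers are names and pair nothing. The genes so chosen are not the 61: of 71, 46 and 86 genes chosen without replicates 1, 2 and 3, 58, 43 and 51 were among the 61. With replicates 1 left out, 71 genes were chosen, and in 48 of them (67.6%) the left-out S9 library was at least 2.5 times the left-out N5 library. With replicates 2 left out this held for 42 of 46 genes (91.3%), and with replicates 3 left out for 77 of 86 (89.5%). Over all genes tested, 3.26%, 3.89% and 3.83% had such a ratio in the same libraries. S9 was above N5 in the left-out libraries for 70 of 71, 46 of 46 and 86 of 86 of the chosen genes. Over all genes tested this held for 50.4%, 38.7% and 40.9% in the same libraries. The median ratio was 4.66 in the choosing libraries and 3.66 in the left-out ones for replicates 1, 3.81 and 4.84 for replicates 2, and 7.22 and 5.91 for replicates 3.

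The members fell into different time courses in the super corolla. For each, the first super group was taken whose mean reached 0.5 times its S9 mean. That group was S9 itself for 36 members, S8 for 11, S7 for 4, S5 for 2, S4 for 4 and S3 for 4, and it was S1 for none, which the rule excludes. By this measure 36 of the 61 first came on at flowering, while 25 had reached that level earlier. The rule used S9, S8, S7 and S1 and so bears on this split. The split is a description, and it was not made for other genes. The measure does not see a later fall. In S8 itself only 20 members were at 0.5 times the S9 mean or above, and among the 25 S9 exceeded S8 by up to 4.97 times. Some of the 25 thus fell back and rose again at flowering.

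**Figure D2:**
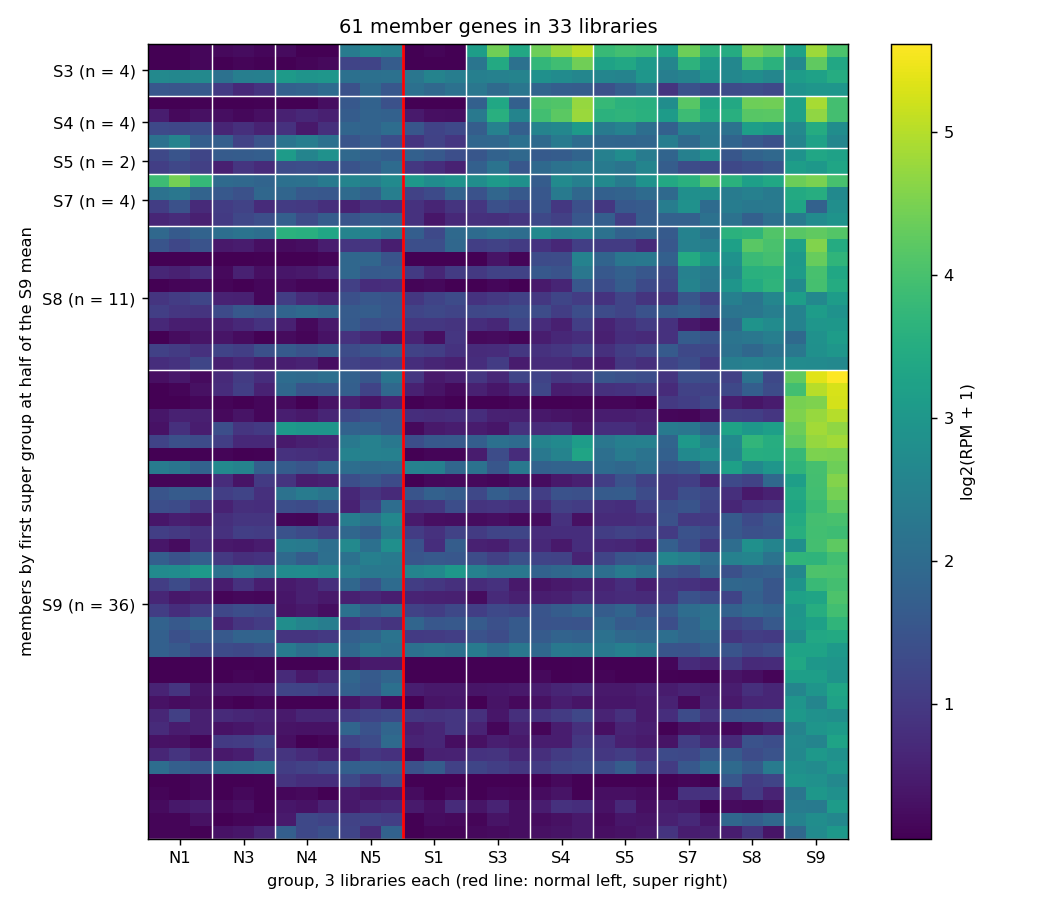
Heat map of log2(RPM + 1) for the 61 members (rows) in the 33 libraries (columns, by group), with rows sorted by the first super group at 0.5 times the S9 mean. The 36 members at the bottom first reach that level in S9. The top rows first reach it in S3 or S4, and not all of them stay there, with means down to 1.33 RPM in S7 and 1.55 in S8.

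The 36 late members had S8 means of 0.187 to 9.41 RPM with a median of 1.77, and S9 means of 5.22 to 35.5 with a median of 10.7. S9 exceeded S8 by 2.02 to 73 times in them, with a median of 6.43. The class holds only members with all earlier super means under 0.5 times S9, so an excess over S8 was built in. Their median level was 0.533 RPM in S1, 0.552 in S3, 0.62 in S4, 0.68 in S5 and 1.28 in S7. Low levels before S9 are likewise part of how the class was formed. In the normal course their median was 0.462 RPM in N1, 0.617 in N3, 0.752 in N4 and 2.2 in N5. The 11 members that first reached the level in S8 had medians of 2.08 RPM in S7, 5.04 in S8 and 7.04 in S9, and of 0.377 in N4 and 1.8 in N5.

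The member with the highest S9 mean, Csa3G781620, belonged to the late ones. Its values were 1.16, 3.46 and 1.4 RPM in S8 and 18.2, 40.3 and 48 in S9. In the earlier super groups its means were 0.577 RPM in S1, 0.933 in S3, 1.08 in S4, 1.71 in S5 and 1.35 in S7. The super libraries before day 9 all lay under 4 RPM, and the lowest S9 library was more than 5 times the highest of them. In the normal course it stood at 0.21, 0.34 and 0.17 RPM in N1, 0.65, 1.02 and 0.72 in N3, 3.07, 2.92 and 3.24 in N4, and 2.42, 1.91 and 3.62 in N5. It had thus reached its normal level by the yellow bud, where N4 and N5 overlap.

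Csa4G124910 had the largest difference between S9 and N5 among the other members with at least 10 RPM in S9, 4.26 on the log2(RPM + 1) scale. It was at or near the lowest value of the libraries in all buds up to day 5 of the super course, with 0.05, 0.05 and 0.06 RPM in S4 and 0.1, 0.1 and 0.05 in S5. It then stood at 0.96, 1.12 and 1.41 RPM in S7, at 0.41, 0.3 and 0.39 in S8, and at 21.1, 22.1 and 37 in S9. The S7 and S8 libraries did not overlap, with the day 7 bud above the day 8 bud, and both lay far under the open flower. The normal open flower held 0.46, 0.28 and 0.48 RPM. Counted as steps minus 1, these were 9 and 8 reads in N5 replicates 1 and 3, against 358, 509 and 640 reads in the S9 libraries.

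**Figure D3:**
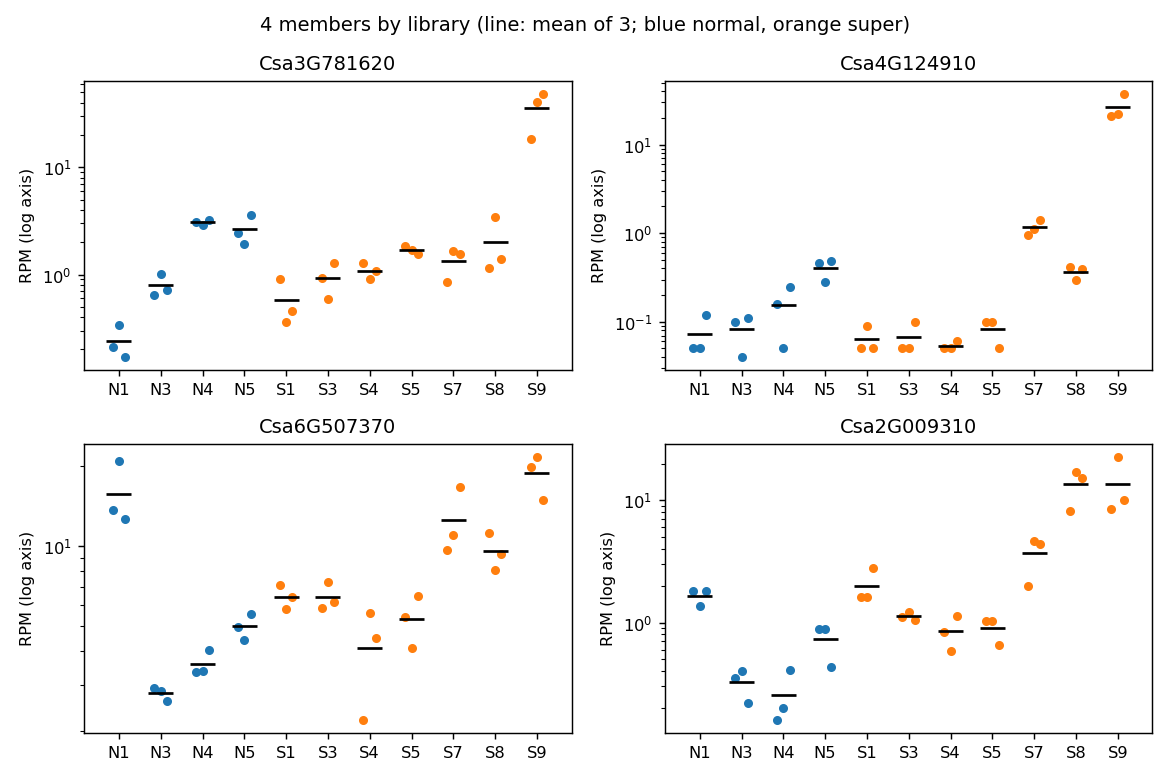
RPM of 4 members in each library on a log axis, by group, with the mean of 3 libraries as a line. Csa3G781620 and Csa4G124910 rise between S8 and S9, Csa2G009310 stands as high in S8 as in S9, and Csa6G507370 is high in N1 (13.6, 20.8 and 12.6 RPM) as well as in S9.

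Some members were also high in a bud. Csa6G507370 stood at 13.6, 20.8 and 12.6 RPM in N1, was lower at 2.92, 2.83 and 2.6 in N3 and 3.34, 3.38 and 4.05 in N4, and was at 4.93, 4.42 and 5.54 in N5. In the super course it was at 7.1, 5.76 and 6.41 RPM in S1, 2.21, 5.59 and 4.51 in S4, 9.66, 11 and 16.7 in S7, 11.2, 8.1 and 9.3 in S8, and 19.7, 21.6 and 14.9 in S9. Its N1 and S9 libraries overlap, so its S9 level was one also seen in the normal green bud. Csa2G009310 was at 1.82, 1.36 and 1.8 RPM in N1, 0.16, 0.2 and 0.41 in N4, and 0.88, 0.89 and 0.43 in N5. It came up in the super yellow bud, with 1.98, 4.68 and 4.38 RPM in S7, 8.22, 17.2 and 15.3 in S8, and 8.42, 22.7 and 10.1 in S9. S8 and S9 overlap, and the ratio of S9 to S8 means was 1.01.

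In 4 members the highest mean of all 11 groups was in S4 and not in S9, which goes against the description as genes of flowering. This set was picked out after its values were seen and is given without a test. Its summed level was 0.53, 0.39 and 0.35 RPM in S1 and 17.8, 50.4 and 20.1 in S3. It was 62.2, 74.5 and 104 RPM in S4, 45.7, 47 and 42.7 in S5, and 27, 62.3 and 37.5 in S7. In S8 it was 35.7, 72.4 and 67.1 RPM and in S9 30.7, 97.9 and 53.8. All S4 libraries lay above all of S3 and S5, while those of S4 overlap with S7, S8 and S9, and those of S9 differ among themselves by more than 3 times. In the normal course the same sum was 0.75, 0.8 and 0.86 RPM in N4 and 9.63, 11.5 and 11 in N5. These 4 members were thus on from day 3 in super corollas, and in normal ones only the open flower held more than 0.6 RPM of any of them.

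The 4 had similar profiles over the libraries. Their pairwise Pearson correlations of log2(RPM + 1) over the 33 libraries were 0.972 to 0.993, as a description, since the libraries share their stages and treatments. In each of them S9 replicate 1 was the lowest S9 library and replicate 2 the highest. Over all pairs of the 61 members the median correlation was 0.66. Without the 4, the members' sum was 174, 218 and 224 RPM in S8 and 488, 686 and 734 in S9. The rule keeps S9 from lying below S8 in any member, so the direction of this change was set by the choice.

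**Figure D4:**
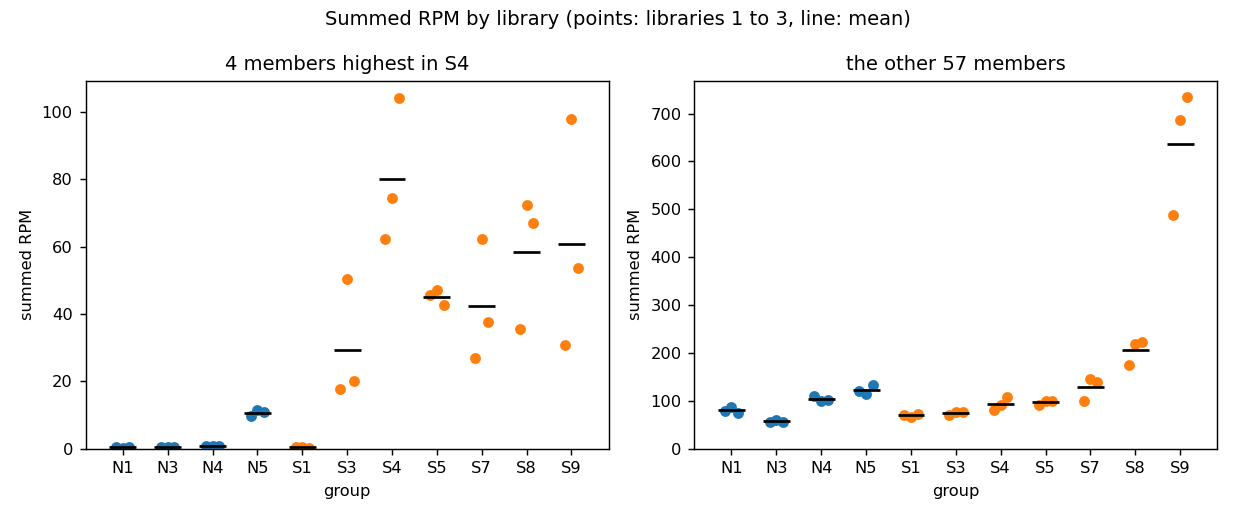
Summed RPM by library of the 4 members whose highest group mean is in S4 (left) and of the other 57 (right), with the mean of 3 libraries as a line. The 4 stand at 62.2 to 104 RPM in S4 and 30.7 to 97.9 in S9, while the 57 reach 488 to 734 in S9.

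In the normal course 39 of the members had their highest mean in the open flower, 15 in the yellow bud, 5 in the green bud and 2 in the green yellow bud. In 37 of the 61 members all N5 libraries lay above all N4 libraries, where this held for 49.5% of all genes tested. The difference between these shares was not tested, and nothing is read from it. The rule sets only an upper limit on N5. In 8 of the 15 that were highest in N4, all N4 libraries lay above all N5 libraries, where this held for 83.5% of all tested genes with their highest normal mean in N4. For the other 7 the yellow bud and the open flower overlap. Means of 5 RPM or more in the normal course were reached by 6 members in N4 and by 3 in N1.

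A further 3 comparisons use groups outside the rule, and were tested with limma on log2(RPM + 1) over 18905 genes, with calls at an adjusted p under 0.05 (Benjamini-Hochberg) and at least 2-fold. All 61 members passed the filter of 1 RPM in at least 1 group, through S9, which the rule requires. Many were too low in the compared groups to be called on this scale, since a 2-fold difference needs about 1 RPM in the higher group. The counts are therefore also set against the members and genes with at least 1 RPM in a compared group, a choice made after seeing the data. Stages next to each other are related, so the choice also bears on these groups.

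The first comparison asks whether the members moved while the normal bud turned yellow. In N4 against N1, 7 members were higher, 11.5% of them, and 8.93% of all genes tested were called higher. Of the 34 members with 1 RPM in N4 or N1, the 7 are 20.6%, against 9.45% of such genes. By edgeR 22 members (36.1%) were higher against 19.4% of all genes, and with a pseudocount of 0.1 16 members (26.2%) against 10.5%. How far the share stood above that of all genes thus differed between these settings. The members called lower were Csa6G507370 with a log2 change of -1.83 (SE 0.21, limma adjusted p 1.1e-08) and Csa2G009310 with -1.08 (SE 0.27, adjusted p 5.6e-04). Of all genes 32.9% were called lower, or 34.8% of those with 1 RPM in a compared group, where the members were at 5.88%, but only 24 members reached 1 RPM in N1 and could show a fall at this scale. The 7 higher members went from 0.0867 to 2.48 RPM in N1 to 1.8 to 10.3 in N4, with log2 changes of 1.35 to 2.44. Csa3G781620 was one of them, at 1.72 (SE 0.26, adjusted p 7.6e-07). The median change was 0.04 over the members and -0.49 over all genes. After rescaling by the median of gene ratios, which brought the median gene to 0.01, 13 members were higher and 1 was lower (17.6% and 19.6% of all genes), so that 92.9% of the members' calls were rises where 77.8% were as deposited. Over all genes the same share went from 21.4% to 47.3%. Csa2G009310 then missed the 2-fold limit at -0.87.

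On day 4 the super corolla was a green yellow bud and the normal one a yellow bud. In S4 against N4, 10 members were higher (16.4%) where 29.9% of all genes were called higher, and 5 were lower (8.2%) where 6.96% were. Of the 42 members with 1 RPM in S4 or N4 these are 23.8% and 11.9%, against 31.6% and 7.35% of such genes. By edgeR 21 members (34.4%) were lower against 16.2% of all genes, and with a pseudocount of 0.1 14 members (23.0%) against 8.17%. The 10 higher members stood at 2.22 to 26.2 RPM in S4 and 0.0667 to 0.743 in N4, with log2 differences of 1.30 to 4.62. They include the 4 members with their maximum in S4, which take the 4 largest differences. Those 4 were picked for their S4 level, so nothing is read from this rank. The 5 lower members stood at 0.287 to 2.31 RPM in S4 and 1.8 to 6.98 in N4, and 4 of them had their highest normal mean in the yellow bud. Of those 5, 4 were also among the 7 that rose from N1 to N4, a comparison that shares N4. Csa3G781620 differed by -0.97 (SE 0.26, adjusted p 0.0012), just short of 2-fold, and by -1.40 after rescaling, past it. After rescaling, 10 members were higher and 13 lower (14.9% and 15.2% of all genes), so that 43.5% of the members' calls were higher in place of 66.7%, where the share over all genes went from 81.1% to 49.5%. The members' median went from 0.09 to -0.20 while that of all genes went from 0.50 to -0.02. The count of lower members was 2 (3.28%) without N4 replicate 1, where 6.88% of all genes were lower. Without S4 replicate 1 it was 9 (14.8%), where 6.8% of all genes were.

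The last comparison asks whether the members changed while the super bud stayed green yellow from day 3 to day 5. In S5 against S3, 5 members were higher (8.2%), where 2.45% of all genes were called higher. Of the 35 members with 1 RPM in S5 or S3 the 5 are 14.3%, against 2.59% of such genes. They went from 0.07 to 4.71 RPM in S3 to 1.36 to 11.7 in S5, with log2 changes of 1.02 to 1.93. One of them belongs to the 4 members with their maximum in S4. No member was called lower by limma, where 2.03% of all genes were (2.14% of those with 1 RPM in a compared group). None was by edgeR on recovered reads, where 3.49% of all genes were. In each test 1 member had an unadjusted p under 0.05 with a lower level. By limma that member changed by -0.42 with an adjusted p of 0.023, and it missed the call through the 2-fold limit. The median change was 0.15 over the members and 0.02 over all genes. Csa3G781620 (0.50, SE 0.26, adjusted p 0.12) and Csa4G124910 (0.02, SE 0.13, adjusted p 0.91) were not called in it. Neither were Csa6G507370 (-0.25, SE 0.21, adjusted p 0.38) and Csa2G009310 (-0.17, SE 0.27, adjusted p 0.66).

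**Figure D5:**
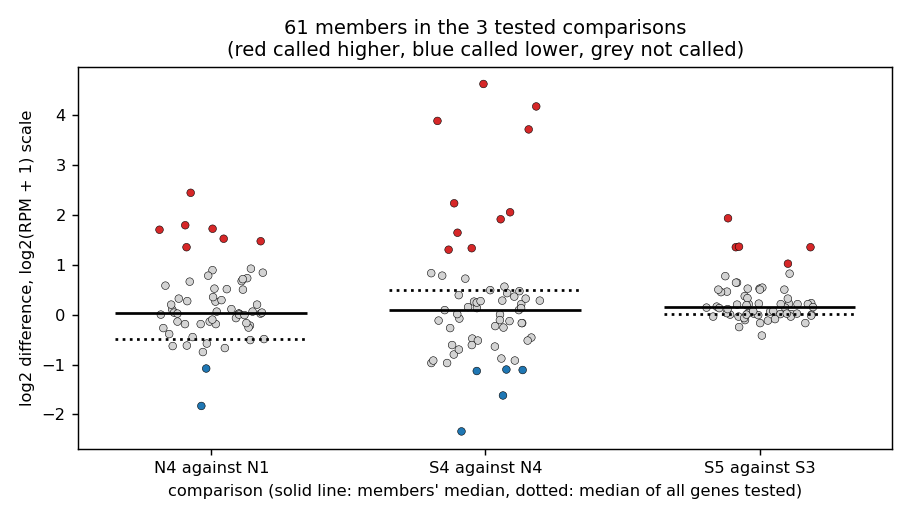
Log2 differences of the 61 members (points) in the 3 tested comparisons, with the members' median as a solid line and that of all genes tested as a dotted line. Calls are coloured: 7 higher and 2 lower in N4 against N1, 10 and 5 in S4 against N4, and 5 and 0 in S5 against S3.

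Some members stood next to each other in the order of the identifiers. Of the 61, 6 formed 3 pairs of adjacent entries of the table, where members make up 0.262% of all entries. Csa3G781620 is in 1 pair, and its neighbour had a mean of 27.8 RPM in S9. The ratio of the neighbour to it was 0.784 to 0.786 in the 3 S9 libraries, and their Pearson correlation was 0.985 over the 33 libraries. The labels do not say how reads matching both genes were counted, so these values may not be separate measurements. In the other pairs the ratio ranged over 0.94 to 1.27 and 1.18 to 1.3 in the S9 libraries, with correlations of 0.942 and 0.819.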

How the data were processed

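The authors deposited 1 table of RPM values, reads scaled to the library total, for 33 libraries. TopHat and HTSeq are named in the submitters' processing notes; their versions, the build and the annotation: not given in the sources used here. Values were used as deposited. Each library's values were whole multiples of 1 step: 100% lay within 0.25 of a whole read in every library. Reads were counted as steps minus 1, since no value was 0, an assumption. The 3 libraries N5 replicate 2, S1 replicate 2 and S4 replicate 2 were not used for reads. The chi-square per degree of freedom of replicate pairs was at least 5.2, and 0 pairs were identical.

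The rule was applied to group means. The test was limma 3.58.1 (R 4.3.3) with a mean-variance trend on log2(RPM + 1), 1 fit of 11 group means; fold changes on this scale understate changes of low genes. edgeR 4.0.16 (quasi-likelihood) on 30 libraries was an alternative. Both were tested on simulated data. The members and lists were chosen with earlier results of these data known. Since the identifiers match no names, no gene list could be formed. Named genes were the member highest in S9, the other member with the largest difference from N5 among those at 10 RPM or more, and the 2 members called lower in N4 than N1 with the largest change. The same replicate numbers in different groups deviated together at -0.15 to 0.17, over 0.1 in 2 of 9 pairs, so they were not taken as pairs.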

Additional observations from a re-analysis of the deposited data

How the results depend on the processing

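Counts of members called differed with the pseudocount, with edgeR and with rescaling, and the last 2 also change the scaling between libraries. For N4 against N1, pseudocount 0.1 gave 16 members higher and 9 lower (10.5% and 38.1% of all genes), pseudocount 5 gave 2 and 1 (6.97% and 22.5%), edgeR gave 22 and 5 (19.4% and 25.2% of all genes), and rescaling gave 13 and 1. For S4 against N4, pseudocount 0.1 gave 18 higher and 14 lower (36.5% and 8.17% of all genes), pseudocount 5 gave 4 and 1 (18.1% and 5.31%), edgeR gave 13 and 21 (21.2% and 16.2% of all genes), and rescaling gave 13 lower. For S5 against S3, pseudocount 0.1 gave 8 higher (4.19% of all genes) and pseudocount 5 gave 0 (0.994%). The cause was not tested; RPM + 1 compresses levels under 1 RPM by construction. Leaving out 1 replicate gave 7 to 8 higher and 2 lower in N4 against N1 (8.81% to 9.21% and 32.5% to 33.4% of all genes). It gave 10 higher and 2 to 9 lower in S4 against N4 (29.3% to 31.2% and 6.8% to 7.09%). In S5 against S3 it gave 4 to 6 higher and 0 lower (2.16% to 2.94% and 1.92% to 2.31%). With the replicate number as a block the counts were 7 and 2, 10 and 5, and 5 and 0, as without it. The shares of all genes were then 8.93% and 32.9%, 29.9% and 6.96%, and 2.45% and 2.03%. In 1 of 9 cases a library matched its own number best. Leaving out S7 replicate 3 from the fit, chosen after seeing the data, also left these counts as they were.

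The rule gave 26 genes with a limit of 5 times N5 and 29 with a floor of 10 RPM in S9, 53 with medians (50 shared with the 61), 69 after rescaling (55 shared), and 48 to 105 with 1 library left out. With 0.333 in place of 0.5 times the S9 mean, 26 members came on in S9 in place of 36; without S9 replicate 1, chosen after seeing the data, 37 did. Of the named genes, Csa3G781620 missed the 2-fold limit in N4 against N1 with a pseudocount of 5 (0.62), and Csa2G009310 did so with that pseudocount (-0.34) and after rescaling (-0.87). In the other direction, Csa3G781620 passed it in S4 against N4 after rescaling (-1.40), by edgeR (-1.99) with a pseudocount of 0.1 (-1.44) and with either of 2 libraries left out. By edgeR, Csa4G124910 passed it in N4 against N1 (2.70) and S4 against N4 (-4.46), at no more than 4 reads in any library of these groups, and Csa2G009310 passed it in S4 against N4 with a pseudocount of 0.1 (1.44). No call of a named gene changed direction under these alternatives.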

Other observations

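Outside the members, 40 genes with a mean of at least 1 RPM over all libraries followed the mean profile of the 4 members highest in S4, at a Pearson correlation of 0.95 or more over the 33 libraries, among 17822 genes compared. This is a description, with a threshold set after the data were seen. In 28 of the 40 the highest group mean was also in S4. None of them was a member: 36 had an S9 mean under S8, 8 had less than 5 RPM in S9, and 8 had at least 5 RPM in N5.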
